A study of Mus musculus with 18 samples.

Results

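Kidneys of mice that had received a high fat diet and STZ together with AOS were compared with kidneys of untreated mice, to see which transcripts still differed from the control level when AOS had been given. HS stands for that diet combined with STZ (by its usual meaning streptozotocin, which destroys insulin-secreting beta cells). The labels do not spell out AOS, which was given at 10 mg/kg. All mice were of the ICR strain and 10 weeks old, and bulk RNA of whole kidney was sequenced. The 6 libraries compared were HS_AOS 1 to 3 and control 1 to 3, out of 18 libraries in 6 groups of 3. HS alone and AOS alone serve below as side by side values, and the remaining groups were HS with FMT, which the labels do not spell out, marked as AOS 10 mg/kg or control. Nothing in the labels states that replicates within a group were different animals. Every p-value therefore covers only the spread between these samples, which may be technical. A gene was included when it reached at least 1 FPKM (fragments per kilobase of transcript, scaled to library size) in 3 of the 6 libraries, which held for 11866 of 19545 genes.

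The kidney filters plasma in the glomerulus, and the proximal tubule reclaims glucose, amino acids and organic acids from the filtrate, largely fuelled by fatty acid oxidation. The proximal tubule also makes glucose from lactate and glutamine, with Pck1 as a controlling enzyme. Downstream, the thick ascending limb reabsorbs salt and makes uromodulin, and the collecting system sets the final sodium, water and acid content of urine. A diet rich in fat and loss of insulin are known to alter hepatic and renal lipid synthesis, which is driven by the transcription factors SREBP1 and SREBP2, while PPARA drives fatty acid oxidation.

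The kidney identity of the libraries was checked on marker lists. The proximal tubule phosphate transporter Slc34a1 was at 1762 to 3041 FPKM, Umod at 218 to 1032 and the podocyte gene Nphs1 at 2.16 to 6.6 in the 6 libraries. Control 3 stood apart from the rest. Across genes, its correlation with any other of the 18 libraries was 0.948 to 0.967. Kap, an androgen-regulated proximal tubule transcript, was at 15798 FPKM in control 3, against 150876 and 145522 in controls 1 and 2 and 66020 to 127320 in HS_AOS. Control 3 also held Cyp11b1, an adrenal steroid enzyme, at 118 FPKM, against at most 0.11 in the other 5 libraries, and Havcr1, the kidney injury molecule, at 19.4 against at most 3.72. The summed level of the 18 adrenal markers was 98.8, 100.3 and 1122 FPKM in the controls from lowest to highest and 82.6 to 104 in HS_AOS. The part of control 3 in each result below was not tested beyond leaving it out, and each count of a list is given without it where the count changes by more than 1.5 times.

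With limma, 373 of the 11866 genes passed an adjusted p of 0.05, which is 3.14% of the genes tested. Of these, 211 (1.78%) were higher and 162 (1.37%) lower in HS_AOS than in control. Changes were mostly modest: the median log2 difference was 0.49 among the higher and -0.64 among the lower genes, and 18 and 33 of them differed by a log2 of at least 1. Every log2 difference here refers to log2(FPKM + 1), a scale that shrinks the changes of weakly expressed genes. The 3 values of 1 group lay wholly above the 3 of the other for 1826 genes (15.4%), and 2242 (18.9%) had an unadjusted p under 0.05. Of the latter, 1202 were higher and 1040 lower in HS_AOS. Whatever the p-value, the log2 difference was above 0 for 6234 and below 0 for 5632 of the 11866 genes. The counts of list members given below stand against these. All 211 higher and all 162 lower called genes had groups without overlap, so this trait sets no called gene named below apart. Of the called genes, 3 higher and 9 lower ones reached 1 FPKM in 1 group only, so they could enter only because the groups differed.

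These counts rest on a spread estimated over all 18 libraries. With the 6 libraries alone in the fit, 6 genes passed: Col27a1, higher, and the sperm genes Prm1, Prm2, Tnp1, Tnp2 and Oaz3, lower. Without control 3 the count was 910 (7.67%), with 668 higher (5.63%) and 242 lower (2.04%), and 314 of these were among the 373. Leaving out any other of the 6 libraries gave 470 (without HS_AOS 1), 144 (HS_AOS 2), 87 (HS_AOS 3), 94 (control 1) and 250 genes (control 2). The genes called also differed in composition. Their longest transcripts had a median GC content of 46.0% and a length of 4107 bases among the higher and 54.4% and 1710 bases among the lower, against 49.8% and 3301 over all genes tested. Across genes, which are not independent replicates, Spearman's rho between GC content and a library's departure from the mean was 0.22, -0.18 and -0.58 for HS_AOS 1, 2 and 3, and 0.14, 0.063 and 0.25 for the controls. The part of this trend in the result was not tested beyond removing it. Once the dependence on GC content and transcript length was taken out of every library, 198 genes (1.68%) passed, 124 higher and 74 lower, and 166 of them were among the 373.

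**Figure D1:**
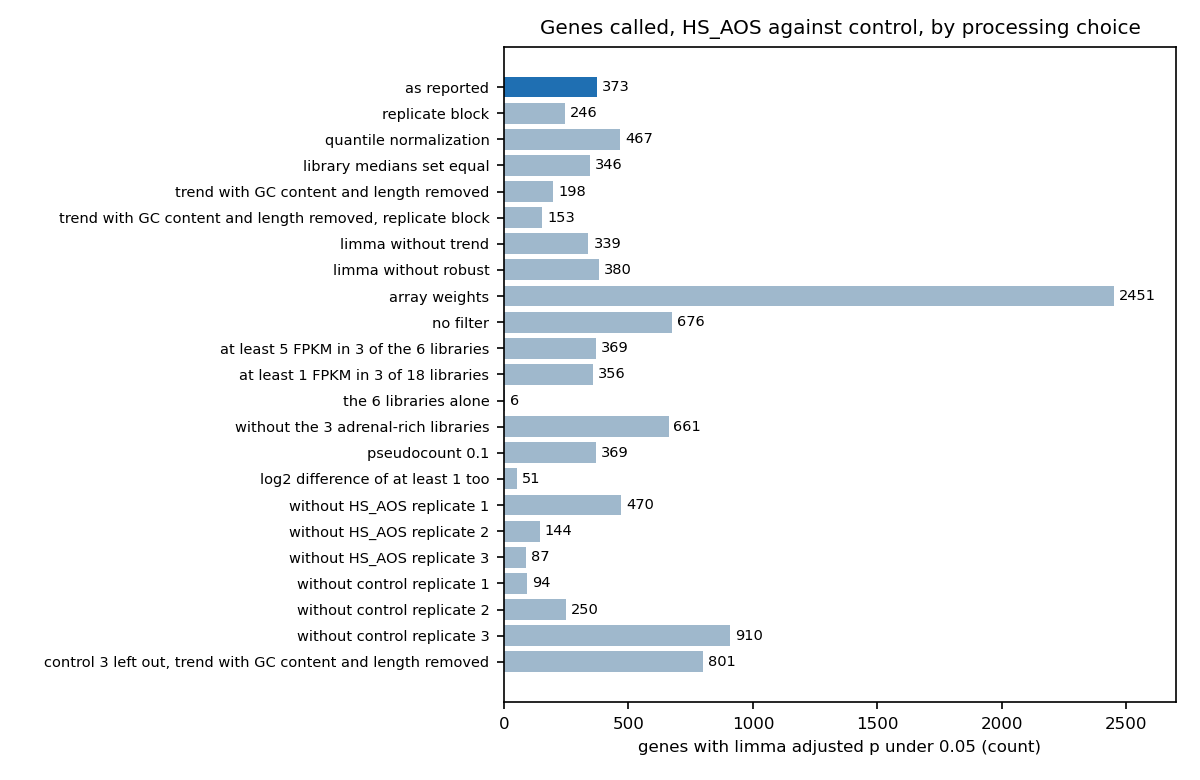
Number of genes with a limma adjusted p under 0.05 between HS_AOS and control (horizontal axis, a count), one bar for each processing choice. The dark bar is the result as reported, 373 genes. The bars run from 6 genes with the 6 libraries alone to 2451 with array weights, whose estimation did not converge fully.

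Among the most raised genes, several kept their call whichever library was left out. Col27a1, which encodes a fibrillar collagen chain (chr4:63214009-63334991), was at 48.8, 31.4 and 36.4 FPKM in HS_AOS and at 9.73, 9.37 and 9.92 in control. The control values were nearly level, and every HS_AOS value was more than 3 times as high (log2 1.88 ± 0.32 SE, adjusted p = 0.014). Cpeb3, an RNA-binding regulator of translation, was at 45.5, 18.4 and 22.8 FPKM against 3.63, 4.69 and 11.7 (log2 2.00 ± 0.33, adjusted p = 0.0119). Control 3 was the highest control library for Cpeb3, and it still lay below HS_AOS 2, the lowest of the treated ones. Mogat2, an acyltransferase of triglyceride assembly, was at 44.5, 31.7 and 22.7 FPKM against 7.39, 4.96 and 10.1 (log2 1.99 ± 0.37, adjusted p = 0.0174). Slc26a6, an anion exchanger that handles oxalate and chloride, was at 10.9, 9.26 and 9.75 FPKM against 4.25, 2.83 and 4.12 (log2 1.23 ± 0.22, adjusted p = 0.0154). The coiled-coil gene Ccdc150 was low in both groups, at 1.4 to 3.35 FPKM in HS_AOS and 0.12 to 0.35 in control (adjusted p = 0.0153). It reached 1 FPKM in HS_AOS only, so it could enter the test only because the groups differed, and its p-value is no independent support. These 5 genes kept their call with any 1 of the 6 libraries left out and with the GC trend removed.

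Pck1, the controlling enzyme of gluconeogenesis (chr2:173153073-173159274), was the most abundant of the strongly raised genes. It was at 2659.9, 2108 and 1845 FPKM in HS_AOS and at 524, 491 and 1011 in control (log2 1.77 ± 0.37, adjusted p = 0.0246). Rarres2, which encodes the adipokine chemerin, was at 238, 136 and 128 FPKM against 51.3, 52.8 and 41.9 (log2 1.71 ± 0.34, adjusted p = 0.0229). Slc25a25, a mitochondrial carrier of ATP-magnesium and phosphate, was at 83.0, 54.0 and 72.7 FPKM against 16.2, 25.8 and 29.1 (log2 1.54 ± 0.30, adjusted p = 0.0221). For each of the 3 genes the groups did not overlap, which the choice of the 12 largest required. Olfm4, a secreted glycoprotein (log2 1.44), Tmem52 (1.34), the zinc finger gene Zfp990 (1.26) and the small GTPase gene Rhoq (1.19) complete the 12 largest increases. The calls of this group leaned on single libraries. Without control 1 the adjusted p was 0.0809 for Pck1, 0.0568 for Rarres2, 0.0742 for Slc25a25, 0.0547 for Tmem52, 0.0708 for Zfp990 and 0.106 for Rhoq. Without HS_AOS 3 it was 0.0533 for Pck1, Olfm4 and Tmem52, 0.0655 for Slc25a25, 0.151 for Zfp990 and 0.0621 for Rhoq. Pck1 and Rhoq also failed without HS_AOS 2 (0.0584 and 0.0986) and control 2 (0.0619 and 0.0828), Zfp990 without control 2 (0.0573) and control 3 (0.0672), and both Zfp990 (0.0531) and Rhoq (0.0545) without HS_AOS 1. With the GC trend removed, Zfp990 (0.0517) and Rhoq (0.0583) did not pass.

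Of the 12 largest decreases, Scd1 is described with lipid synthesis and the sperm genes are described last. Arg2, the mitochondrial arginase, was at 1.96, 0.69 and 2.8 FPKM in HS_AOS and at 10.0, 6.59 and 22.6 in control (log2 -2.23 ± 0.44, adjusted p = 0.0221). Gpx6, a glutathione peroxidase, was at 7.99, 4.26 and 7.23 FPKM against 17.4, 25.9 and 57.9 (log2 -2.07 ± 0.46, adjusted p = 0.0301). Control 3 was the highest library for both. The carriers Slc22a19 and Slc22a26 belong to a family of near-identical organic anion transporters, between which reads may be split, and Serpina1f and Mettl7a3 have close paralogs too. Slc22a19 was at 8.64, 3.02 and 31.9 FPKM against 34.0, 58.6 and 52.1 (log2 -2.15 ± 0.53, adjusted p = 0.0425), so that HS_AOS 3 nearly reached control 1. Serpina1f (log2 -3.06), Mettl7a3 (-2.22) and Slc22a26 (-1.81) were lower as well. Without HS_AOS 2 the adjusted p was 0.0649 for Arg2, 0.0949 for Gpx6, 0.109 for Slc22a19, 0.101 for Serpina1f, 0.0731 for Mettl7a3 and 0.154 for Slc22a26. Other single libraries ended calls too: HS_AOS 1 for Slc22a19 (0.0697), Serpina1f (0.053) and Slc22a26 (0.102), HS_AOS 3 for Gpx6 (0.0771) and Mettl7a3 (0.0677), control 1 for Arg2 (0.0547), Slc22a19 (0.0791), Serpina1f (0.0524) and Slc22a26 (0.113), control 2 for Gpx6 (0.0537), Slc22a19 (0.0992), Serpina1f (0.0579) and Slc22a26 (0.101), and control 3 for Gpx6 (0.051), Slc22a19 (0.0646) and Serpina1f (0.0611).

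**Figure D2:**
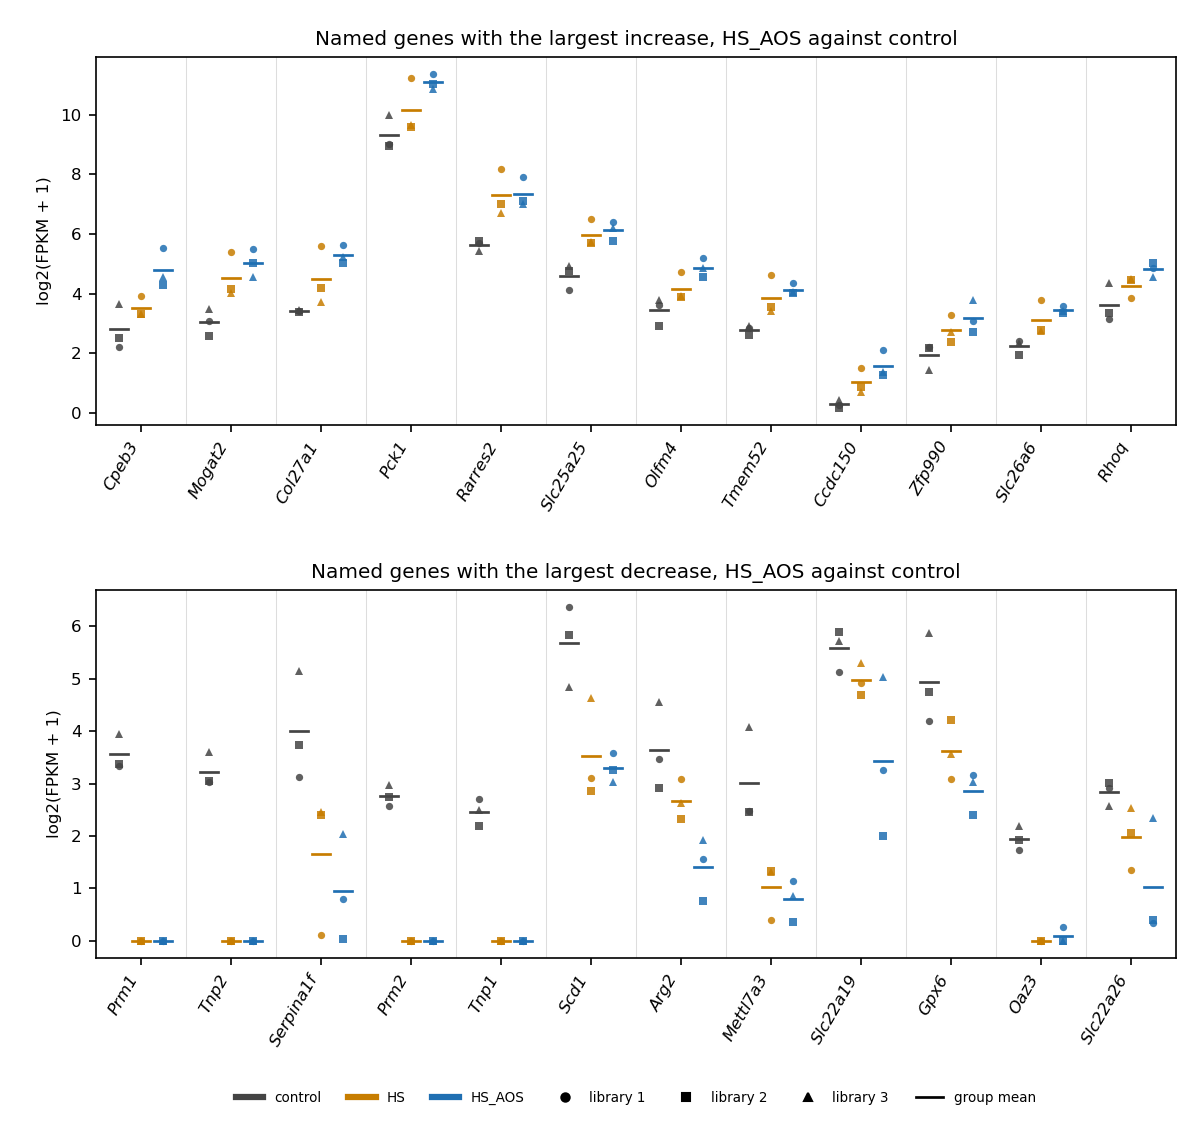
Levels as log2(FPKM + 1) (vertical axes) of the 12 named genes with the largest increase (top) and the 12 with the largest decrease (bottom) between HS_AOS and control. Colours mark control, HS and HS_AOS, symbols mark library 1, 2 and 3, and bars are group means. Col27a1 is level in the controls and higher in all 3 HS_AOS libraries, while Prm1, Prm2, Tnp1 and Tnp2 are at 0 in every HS and HS_AOS library.

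Whether these genes were already shifted in HS alone was read from the HS libraries, which were tested against HS_AOS directly. HS against control and HS_AOS against control share the control libraries, so their values stand side by side only. HS against control gave 8 called genes (0.0674%) and 793 (6.68%) at an unadjusted p under 0.05, and AOS alone against control 8 (0.0674%) and 884 (7.45%). In both comparisons the 8 called genes included Prm1, Prm2, Tnp1, Tnp2, Oaz3 and Ldhc, the germ cell genes described last. The direct test of HS_AOS against HS gave 322 called genes (2.71%) and 2475 (20.9%) at an unadjusted p under 0.05. That count fell to 1 gene, Nxt2, with the GC trend removed, and to 0 without HS 2 or without HS 3. It was 547 without HS 1, and 819, 76 and 14 without HS_AOS 1, 2 and 3. Among the 211 genes called higher, the median log2 difference from control was 0.13 in HS and 0.05 under AOS alone, and that of HS_AOS minus HS was 0.37. Among the 162 called lower these medians were -0.16, -0.13 and -0.40. Both sets were chosen by their HS_AOS minus control difference, and HS_AOS minus HS uses the same HS_AOS values. Smaller medians in HS and AOS alone, and a median of the same sign for HS_AOS minus HS, can come from that choice. These medians therefore do not show whether the genes were shifted in HS.

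Some genes stood as far from control in HS as in HS_AOS. Rarres2 was at 290, 127 and 103 FPKM in HS, which overlaps HS_AOS (HS_AOS minus HS log2 0.04, adjusted p = 0.961). Slc6a18, a neutral amino acid transporter of the proximal tubule, was at 68.7, 57.3 and 81.6 FPKM in HS_AOS, 66.3, 62.5 and 87.3 in HS and 152, 133 and 120.2 in control. Both HS groups thus lay below every control library, by a log2 of -0.96 in HS_AOS (adjusted p = 0.0198) and -0.91 in HS (adjusted p = 0.138). Aadat, an aminotransferase of the kynurenine pathway chosen after its values were seen, showed the same layout, at 104, 112 and 130.0 FPKM in HS_AOS, 108, 121 and 118 in HS and 218, 228 and 217 in control (HS_AOS minus control log2 -0.94, adjusted p = 0.0157). The call of Slc6a18 ended without HS_AOS 2 (adjusted p = 0.061) or control 1 (0.0675).

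Other genes lay near the control level in HS, or between it and HS_AOS, and HS_AOS differed from HS by the direct test. Ppara, the nuclear receptor of fatty acid oxidation (chr15:85734910-85806851), was at 25.9, 20.5 and 18.1 FPKM in HS_AOS, 12.8, 9.96 and 12.8 in HS and 8.9, 10.96 and 12.1 in control. The HS_AOS libraries lay above every HS and control library. The log2 difference was 0.94 ± 0.14 over control (adjusted p = 0.00612) and 0.80 over HS (adjusted p = 0.0161). HS with FMT was as high for Ppara, at 19.2, 20.4 and 18.9 FPKM (marked AOS) and 24.7, 19.3 and 18.5 (marked control). The rise of Ppara was thus not particular to HS_AOS. Hlf, a clock-controlled transcription factor, was at 43.9, 30.7 and 32.6 FPKM in HS_AOS, 23.6, 21.5 and 18.5 in HS and 21.2, 23.2 and 24.6 in control (HS_AOS minus HS log2 0.72, adjusted p = 0.0151). In HS with FMT, Hlf was at 33.6, 39.5 and 34.9 FPKM when marked AOS and 23.7, 23.9 and 27.0 when marked control. Glyat, which conjugates glycine to benzoate and other acyl groups, was at 767, 738 and 808 FPKM in HS_AOS, 571, 645 and 577 in HS and 559, 533 and 496 in control (HS_AOS minus HS log2 0.37, adjusted p = 0.0492). Every HS library lay above every control for Glyat (HS minus control log2 0.17, limma adjusted p = 0.791). HS with FMT, marked AOS or control, was at 560 to 686 FPKM for Glyat. Nxt2, a cofactor of RNA export chosen after its values were seen, was at 45.9, 52.3 and 57.9 FPKM in HS_AOS, 36.5, 33.6 and 32.9 in HS and 34.1, 35.8 and 31.3 in control (HS_AOS minus HS log2 0.58, adjusted p = 0.014). With the GC trend removed the direct test gave 0.0506 for Ppara, 0.0945 for Hlf and 0.279 for Glyat, and Nxt2 passed at 0.0229. Against control, Ppara and Glyat kept their call with any library left out, and Hlf failed without control 1 (0.0803) or with the GC trend removed (0.0938).

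Genes of fatty acid and triglyceride synthesis were the pathway list with most decreases. Of 21 members tested, 5 fell (Scd1, Fasn, Acaca, Scd2 and Srebf1) and 1 rose (Acss2), with a median log2 difference of -0.31 against 0.01 over all genes tested. Scd1, which introduces the double bond into stearate (chr19:44394450-44407709), was at 10.98, 8.54 and 7.21 FPKM in HS_AOS and 82.1, 56.0 and 27.8 in control (log2 -2.40 ± 0.45, adjusted p = 0.0182). For Fasn, which builds palmitate from malonyl-CoA, the HS_AOS libraries were at 3.83, 3.23 and 5.42 FPKM against 28.1, 22.3 and 7.0 (log2 -1.79 ± 0.38, adjusted p = 0.0252). The groups did not overlap for either gene, as in every called gene, and control 3 was the lowest control in both. Acaca, the acetyl-CoA carboxylase that supplies malonyl-CoA, was at 2.33, 2.64 and 3.2 FPKM against 8.16, 6.32 and 3.5 (log2 -0.86, adjusted p = 0.0348). Srebf1, which encodes the SREBP1 factors themselves, was at 4.76, 5.99 and 6.93 FPKM against 10.3, 11.6 and 10.8 (log2 -0.80, adjusted p = 0.049), and Scd2 was at 6.76, 6.7 and 8.0 against 12.6, 11.8 and 23.2 (log2 -0.99, adjusted p = 0.045). Acss2, which makes acetyl-CoA from acetate, rose from 126, 124 and 93.4 to 186, 163 and 150.4 FPKM (log2 0.54, adjusted p = 0.0345). Mogat2, the acyltransferase of triglyceride assembly described above, also rose, but is not a member of this list. Adipocytes also express lipid synthesis genes, and the 14 adipocyte markers tested had a median log2 difference of -0.89, with 12 of them below 0 and 0 called. Their summed level over 16 markers ran from 131 to 271 FPKM in HS_AOS, from 201 to 819 in control and from 144 to 1841 in HS, with 0 markers listed at 0 throughout any of these groups. Adipoq, the adipocyte hormone adiponectin, was at 3.34, 6.54 and 1.99 FPKM in HS_AOS, 25.4, 12.04 and 4.11 in controls 1, 2 and 3, and 10.3, 0.68 and 60.6 in HS (HS_AOS minus control adjusted p = 0.562). Its order over the controls was that of Scd1, Fasn, Acaca and Acss2, but not that of Scd2 or Srebf1. HS 3 was the highest HS library for Adipoq, Scd1 and Fasn. Fasn was lower in HS 1 than in HS 2 (3.69 and 6.66 FPKM), opposite to Adipoq. Under AOS alone, Adipoq was at 2.49, 5.0 and 33.3 FPKM and Scd1 at 42.6, 41.95 and 37.1, in opposite order. The part of adipocyte RNA in the lipid synthesis calls was not tested.

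In HS alone, Scd1 was at 7.57, 6.25 and 23.9 FPKM, below every control (adjusted p = 0.14 for HS against control). Fasn was at 3.69, 6.66 and 9.02, which overlaps the controls (adjusted p = 0.502). Acaca (0.504), Scd2 (0.716) and Srebf1 (0.831) did not pass in HS against control either and overlapped the controls too, Srebf1 reaching 12.3 FPKM in HS 3, above every control. The direct test of HS_AOS against HS did not pass for Scd1 (log2 -0.24, adjusted p = 0.8), Fasn (-0.49, 0.495) or Acaca (-0.17, 0.67). Without control 3, Scd1, Fasn and Acaca fell and Lpin1 rose (3 lower and 1 higher). Scd1 failed without HS_AOS 3 (adjusted p = 0.057) or control 1 (0.0627), and Fasn without HS_AOS 2 (0.0742), HS_AOS 3 (0.0533), control 1 (0.0872) or control 2 (0.0681). Acaca failed without any of HS_AOS 1, 2 and 3 and controls 1 and 2 (0.0693, 0.0936, 0.0718, 0.116 and 0.0828), and Acss2 without HS_AOS 1, 2 and 3 and controls 1 and 3 (0.0725, 0.0785, 0.06, 0.057 and 0.0509) or with the GC trend removed (0.0693). Srebf1 and Scd2, chosen after their values were seen, failed without control 3 (0.0528 and 0.0729). Without HS_AOS 3, and without control 1, 0 of the 21 members were called.

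In the list of cholesterol synthesis and uptake, 3 of 21 members tested fell, Pmvk and Dhcr7 among them, and 0 rose. The median log2 difference was -0.34, and 15 of the 21 lay below 0, against 5632 of the 11866 genes tested. Pmvk, which phosphorylates phosphomevalonate, was at 5.03, 5.83 and 6.41 FPKM in HS_AOS and 11.2, 8.78 and 12.7 in control (log2 -0.81 ± 0.15, adjusted p = 0.0182). Dhcr7, the last enzyme of one branch of the pathway, was at 10.3, 9.44 and 9.11 FPKM against 13.3, 16.8 and 20.7 (log2 -0.73 ± 0.18, adjusted p = 0.0377). For both genes each HS_AOS library lay below each control, as in every gene called lower. Without control 3, 4 members fell, among them Pmvk and Mvd. The call of Pmvk ended without control 1 (adjusted p = 0.0552). That of Dhcr7 ended without HS_AOS 2 (0.0982), HS_AOS 3 (0.124), control 2 (0.0771) or control 3 (0.0611). With the GC trend removed, neither Pmvk (0.0716) nor Dhcr7 (0.0553) passed.

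Promoter sequences are shown for Fasn and Pmvk, because members of both lipid lists fell, and for Cry1, the clock gene with the firmest decrease. Each runs from 250 bases before to 50 bases after a RefSeq transcript start (GRCm38.p6), 5′ to 3′ on the strand of the gene. The places are chr11:120824498-120824797 on the minus strand for Fasn, chr3:89454291-89454590 on the plus strand for 1 of the starts of Pmvk, and chr10:85185005-85185304 on the minus strand for Cry1. Capitals mark CCAAT boxes (CCAAT, on either strand, so also ATTGG) and the E-box CACGTG, the letters that clock activators are known to bind.
Fasn: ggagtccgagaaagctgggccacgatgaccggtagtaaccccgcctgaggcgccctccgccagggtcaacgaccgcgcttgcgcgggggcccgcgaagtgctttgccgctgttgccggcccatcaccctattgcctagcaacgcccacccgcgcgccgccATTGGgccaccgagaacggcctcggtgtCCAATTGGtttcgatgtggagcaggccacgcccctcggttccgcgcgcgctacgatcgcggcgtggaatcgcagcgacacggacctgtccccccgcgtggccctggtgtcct
Pmvk: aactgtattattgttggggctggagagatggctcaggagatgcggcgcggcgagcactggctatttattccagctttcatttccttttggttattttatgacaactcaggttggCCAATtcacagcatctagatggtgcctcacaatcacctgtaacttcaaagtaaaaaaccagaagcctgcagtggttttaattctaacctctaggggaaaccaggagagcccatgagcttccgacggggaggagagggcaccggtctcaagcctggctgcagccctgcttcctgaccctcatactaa
Cry1: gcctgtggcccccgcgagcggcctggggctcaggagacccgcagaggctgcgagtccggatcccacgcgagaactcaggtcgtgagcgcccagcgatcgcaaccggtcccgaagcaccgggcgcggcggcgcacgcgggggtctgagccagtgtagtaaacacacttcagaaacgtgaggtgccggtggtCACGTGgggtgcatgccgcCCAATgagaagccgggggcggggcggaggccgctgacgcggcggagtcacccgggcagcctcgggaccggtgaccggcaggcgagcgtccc
The Fasn window held 3 CCAAT boxes, of which those on opposite strands at 62 and 59 bases before the start overlap.

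The other windows held 1 CCAAT box each, and that of Cry1 an E-box beside it. Over 32851 promoter windows of the table, 37.4% held a CCAAT box and 7.15% the E-box. The SREBP letters TCACNCCAC (1.24% of windows) and the D-box TTANGTAA (2.32%), searched on both strands, were in none of the 3 windows shown. The window of another start of Pmvk (chr3:89459321-89459620), not shown, held none of these letters, nor a CCAAT box or the E-box. A match describes the letters only.

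**Figure D3:**
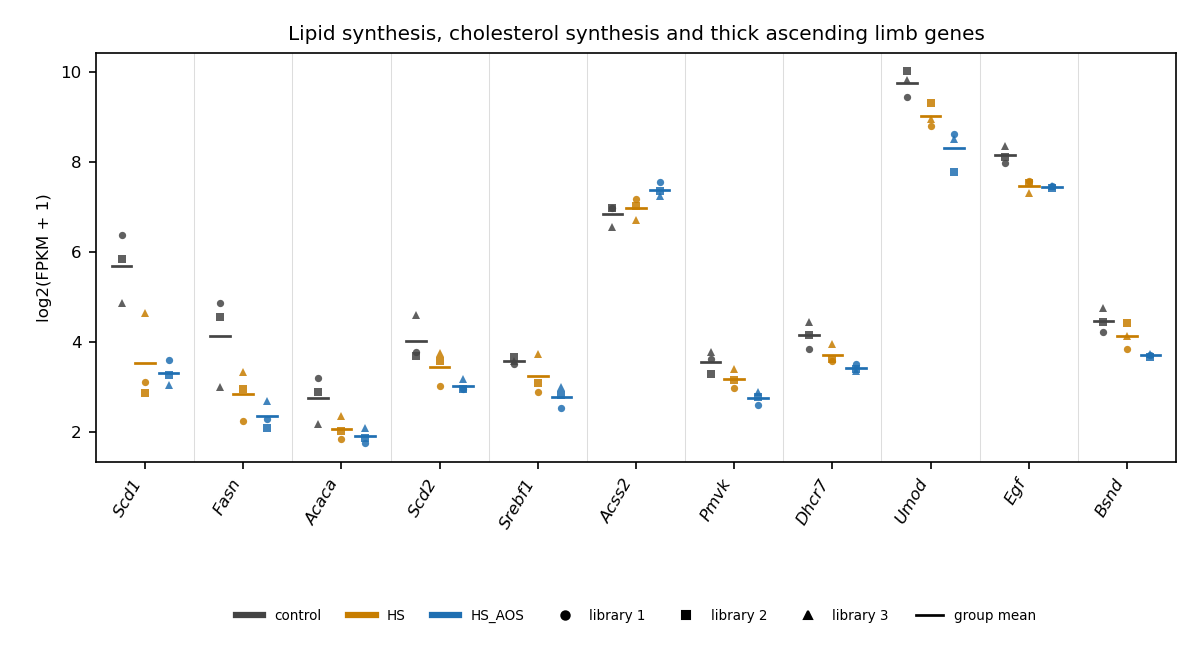
Levels as log2(FPKM + 1) (vertical axis) of 6 fatty acid synthesis genes, 2 cholesterol genes and 3 thick ascending limb markers in control, HS and HS_AOS. Symbols mark library 1, 2 and 3, and bars are group means. The HS_AOS libraries lie below every control for each gene but Acss2, where they lie above.

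Few genes of fatty acid oxidation passed. Of 33 members tested, Ppara rose and Cyp4a12b fell, while 29 lay above 0 and the median log2 difference was 0.39. Over all genes tested, 6234 of 11866 lay above 0, with a median of 0.01. Cyp4a12b, a fatty acid hydroxylase with a near-identical neighbour that may share its reads, was at 4.49, 3.1 and 2.73 FPKM against 7.83, 6.4 and 10.9 (log2 -1.07, adjusted p = 0.0247). It was at 2.16, 3.55 and 3.09 FPKM in HS (adjusted p = 0.072 for HS against control) and 4.04, 2.96 and 1.86 under AOS alone, and its call ended without HS_AOS 2 (0.0689), HS_AOS 3 (0.094) or control 1 (0.0661). Among classic PPARA targets, control 3 lay far from the other controls. Cyp4a14, a fatty acid omega-hydroxylase, was at 57.6, 67.4 and 60.3 FPKM in HS_AOS, at 8.56 and 2.42 in controls 1 and 2 and at 227 in control 3. With all 3 controls its adjusted p was 0.474, and without control 3 it was 0.0313 (log2 3.45). Cyp4a10 had the same layout, at 420.1, 405 and 279 FPKM in HS_AOS and 93.7, 77.6 and 831 in control (adjusted p = 0.504, and 0.0361 without control 3). Without control 3, 6 members rose, among them Ppara, Cyp4a14, Cyp4a10, Acaa2 and Decr1, and Cyp4a12b fell.

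Of 15 genes of gluconeogenesis and glucose transport, Pck1 rose and no other passed with all controls (median log2 0.27). Without control 3, 8 rose and 0 fell, among them Pck1, Fbp1, the sugar carriers Slc2a2, Slc2a5, Slc2a9 and Slc5a10, and the glucose 6-phosphate carrier Slc37a4. Fbp1, fructose bisphosphatase, was at 1293, 1441 and 1172 FPKM in HS_AOS and at 894, 961 and 1326 in control (adjusted p = 0.188, and 0.0102 without control 3). Slc2a2, the basolateral glucose carrier, was at 59.6, 75.3 and 56.4 FPKM against 33.1, 31.6 and 64.8 (adjusted p = 0.124, and 0.00298 without control 3). In both, controls 1 and 2 lay below all HS_AOS libraries and control 3 lay among them. HS was at 1197, 1216 and 1187 FPKM for Fbp1 and 50.5, 46.0 and 45.6 for Slc2a2. Of the 18 insulin and FOXO genes tested, Igfbp3, a carrier of insulin-like growth factors, rose (156, 144 and 106 against 49.9, 65.9 and 95.0 FPKM, adjusted p = 0.0441). That call ended without any of HS_AOS 1, 2 and 3 and controls 1 and 2 (0.0911, 0.122, 0.0642, 0.148 and 0.0905), and without control 3 Foxo3, Insr and Foxo1 rose beside Igfbp3. By limma, glycolysis had 0 of 16 members called (unadjusted p under 0.05: 1 higher, 4 lower), with a median log2 of -0.02. Without control 3 only Pklr, the pyruvate kinase of liver and proximal tubule, rose. Pklr was at 25.01, 21.32 and 19.99 FPKM in HS_AOS and 9.18, 9.6 and 29.64 in control (adjusted p = 0.312, and 0.00456 without control 3).

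Several genes of the circadian clock and its output separated HS_AOS from controls 1 and 2, with control 3 on the side of HS_AOS. Among those where control 3 instead lay with the other controls were Cry1 and Hlf. In the clock, ARNTL with CLOCK or NPAS2 drives the Per and Cry repressors and the Nr1d receptors, which in turn hold Arntl down, and DBP, TEF and HLF carry the rhythm to output genes. Of 19 members tested with all controls, 1 rose (Hlf) and 2 fell, Cry1 among them (median log2 0.20). Cry1, the repressor, was at 1.06, 0.61 and 0.57 FPKM in HS_AOS and 3.84, 2.55 and 2.79 in control (log2 -1.21 ± 0.20, adjusted p = 0.0119), a call kept with any library left out. It was at 0.95, 0.89 and 0.90 FPKM under AOS alone and 0.86, 1.55 and 1.96 in HS (adjusted p = 0.463 for HS against control).

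Without control 3, 9 clock genes rose and 5 fell, with a median of 0.64. Dbp was at 166, 44.4 and 40.1 FPKM in HS_AOS and at 2.76, 6.9 and 90.6 in control (adjusted p = 0.17, and 0.0061 without control 3). Nr1d1 was at 51.4, 50.6 and 33.2 FPKM against 7.57, 12.3 and 40.2 (0.0943 and 0.0042). Arntl ran opposite to both, at 0.49, 4.33 and 3.03 FPKM against 12.5, 10.1 and 2.71 (0.135 and 0.0208). Nr1d2, Per3, Ciart, Tef, Hlf, Cry2 and Rora also rose, and Npas2, Nfil3 and Cry1 were among those that fell. HS was more even, at 11.2, 12.2 and 7.33 FPKM for Dbp and 8.18, 8.46 and 8.93 for Arntl. The labels used here give no time of day for the sampling.

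**Figure D4:**
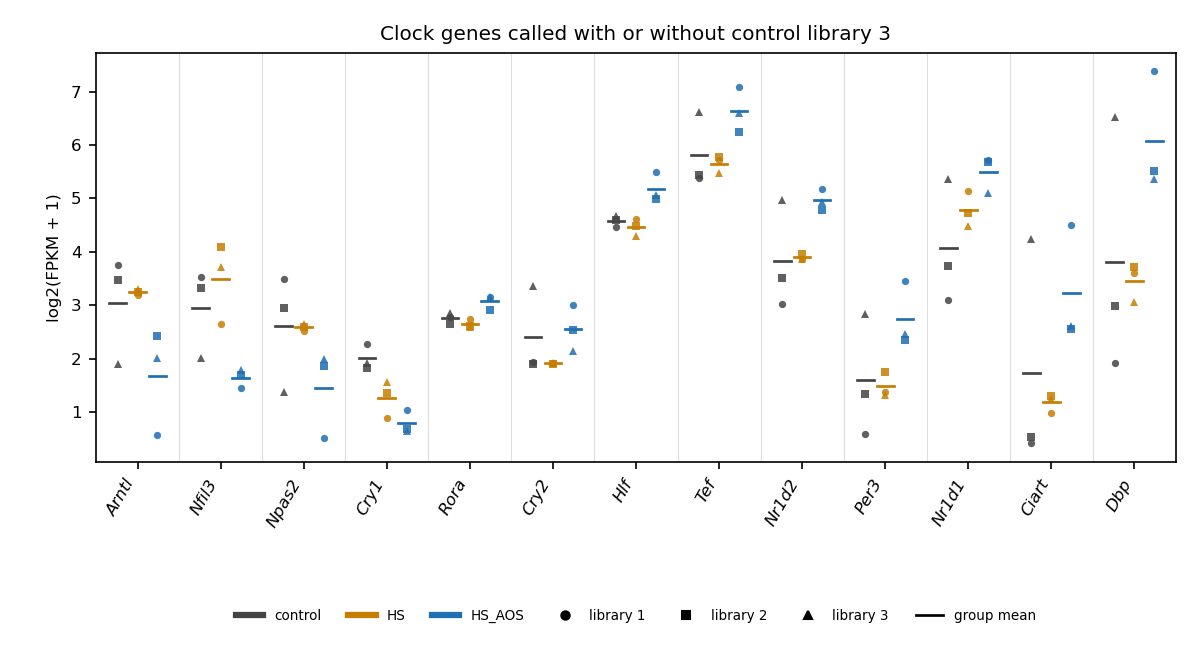
Levels as log2(FPKM + 1) (vertical axis) of clock genes called with all controls or without control 3, ordered by the difference without control 3. Symbols mark library 1, 2 and 3, and bars are group means. For Dbp, Ciart and Arntl the control 3 triangle lies near the HS_AOS points, and controls 1 and 2 lie far from them.

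Markers of tubule segments were read next. In bulk kidney, fewer cells of a type and less RNA per cell cannot be told apart. Of the 12 thick ascending limb markers, 4 fell and 0 rose, and all 12 lay below 0, with a median log2 difference of -0.86 (-0.65 without control 3, with the same 4 genes called). Umod, which encodes uromodulin (chr7:119462708-119479262), was at 395, 218 and 364 FPKM in HS_AOS and 693, 1032 and 898 in control (log2 -1.45 ± 0.30, adjusted p = 0.0246). Egf, the epidermal growth factor precursor, was at 176, 170.5 and 174 FPKM against 251, 274 and 325 (log2 -0.70 ± 0.14, adjusted p = 0.0246). Bsnd, the chloride channel subunit barttin, was at 12.1, 11.7 and 12.3 FPKM against 17.6, 20.6 and 25.9 (log2 -0.76 ± 0.14, adjusted p = 0.0159). The BMP antagonist Sostdc1 was at 30.9, 33.6 and 38.0 FPKM against 59.7, 50.8 and 99.8 (adjusted p = 0.0339). As in every called gene, the groups did not overlap for these genes. Slc12a1, the salt cotransporter that defines the segment, had a log2 difference of -1.21 (adjusted p = 0.183). HS lay at 188, 184 and 158 FPKM for Egf, near HS_AOS, and at 441, 635 and 498 for Umod. AOS alone was also below every control for Egf (220, 191 and 185 FPKM) and Bsnd (15.0, 15.3 and 13.1). Neither gene passed for AOS alone against control (adjusted p = 0.662 for each). Umod under AOS alone overlapped the controls, at 930, 687 and 583 FPKM. The median log2 difference of the 12 markers from control was -0.41 under AOS alone and -0.45 in HS. Bsnd kept its call with any library left out, and was the 1 marker called without HS_AOS 2 and without HS_AOS 3. Umod failed without HS_AOS 2 (0.0702), HS_AOS 3 (0.0529) or control 2 (0.0579), Egf without HS_AOS 2 (0.0611) or HS_AOS 3 (0.0655), and Sostdc1 without HS_AOS 1, 2 and 3 and control 1 (0.0635, 0.0857, 0.0757 and 0.0689).

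Further along the nephron, 2 of 13 distal and connecting tubule markers fell (Emx1 and the kallikrein Klk1) and 1 of 11 principal cell markers fell (Scnn1a, the alpha subunit of the epithelial sodium channel). Klk1 was at 838, 1222 and 1295 FPKM against 1774, 1517 and 2074 (adjusted p = 0.0428), and Scnn1a at 37.8, 29.7 and 27.7 against 53.6, 39.3 and 94.5 (adjusted p = 0.043). None of the 3 passed with the GC trend removed (Emx1 0.147, Klk1 0.172, Scnn1a 0.0517) or without HS_AOS 2 (0.0548, 0.0689 and 0.118), HS_AOS 3 (0.135, 0.0599 and 0.148) or control 1 (0.0601, 0.102 and 0.0893), and Klk1 also failed without HS_AOS 1 (0.0958) or control 3 (0.0637). Without control 3, Emx1 fell and Trpm7 rose among the distal markers. Intercalated cell markers had 0 of 14 called, thin limb markers 0 of 9 (median -0.93) and podocyte markers 0 of 15. At an unadjusted p under 0.05, limma gave 1 higher and 1 lower intercalated, 3 lower thin limb and 1 higher podocyte marker. It gave 6 lower principal cell markers, and 1 higher and 3 lower distal and connecting tubule markers. Over all 11866 genes the counts were 1202 higher and 1040 lower. Of the principal cell markers 10 of 11 lay below 0 (median log2 -0.43), and of the distal ones 12 of 13 (-0.23), against 5632 of the 11866. Without control 3, 5 podocyte markers rose, among them Nphs1, Podxl, Clic5 and Cdkn1c, as did the intercalated cell markers Slc4a9 and Car12.

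Of 28 proximal tubule markers, 22 lay above 0 (6234 of 11866 over all genes tested), with a median of 0.32. Of the 28, 1 rose (the imino acid carrier Slc6a20b, adjusted p = 0.049) and 1 fell (Slc6a18). Without control 3, 8 rose and 2 fell, the latter being Slc6a18 and Kap. Slc6a20b was not called without HS_AOS 1, 2 and 3 or control 1 (0.082, 0.118, 0.113 and 0.0712) or with the GC trend removed (0.172). The summed level of the 28 markers, most of it Kap, was 76332 to 137490 FPKM in HS_AOS and 24511 to 160799 in control. Of the renin-angiotensin genes, 1 of 13 rose: Enpep, the aminopeptidase that degrades angiotensin II, at 55.1, 65.0 and 63.5 FPKM against 33.7, 36.8 and 52.6 (adjusted p = 0.0475). Enpep failed without HS_AOS 2 (0.137), HS_AOS 3 (0.14), control 1 (0.157) or control 2 (0.114) and with the GC trend removed (0.108). Without control 3, 4 rose, among them Enpep, Atp6ap2 and Agt. Slc22a19 was the only call among 23 organic anion and cation transporters, and without control 3, 3 rose and 2 fell. Among the latter was Slc22a7, at 14.1, 14.4 and 61.9 FPKM in HS_AOS and 144, 199.7 and 38.9 in control (adjusted p = 0.0943, and 0.0241 without control 3).

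Few genes of the xenobiotic, microbial metabolite, antioxidant and respiratory chain lists passed. Fmo1, a flavin monooxygenase, was at 528, 509.99 and 454 FPKM in HS_AOS and 362, 345 and 291 in control (log2 0.58 ± 0.12, adjusted p = 0.0246). It was called among 27 xenobiotic genes as the only member, and with Glyat among 20 genes of microbial metabolite transport and sensing. Cat, the peroxisomal catalase, rose (573, 511 and 584 against 420.1, 423 and 354 FPKM, adjusted p = 0.0425), and Sod3, the extracellular superoxide dismutase, fell (341, 315 and 278 against 413, 405 and 423, adjusted p = 0.0258). These were the 2 calls among 26 antioxidant genes, and without control 3 the calls were Gsta2, higher, and Sod3. Of 37 respiratory chain subunits, 2 fell: Cox5a of complex IV (506, 539 and 508 against 689, 644 and 710.5 FPKM, adjusted p = 0.0221) and Ndufa2 of complex I (135, 123 and 84.3 against 187, 161 and 179.5, adjusted p = 0.0246). Sod3, Cox5a and Ndufa2 were also lower in HS_AOS than in HS (adjusted p = 0.0282, 0.0318 and 0.0254, and 0.0523, 0.0523 and 0.121 with the GC trend removed). Psmc3 was the only proteasome subunit of 32 that fell (log2 -0.25, adjusted p = 0.049). Without control 3, 5 xenobiotic genes rose (Fmo1, Fmo2, Fmo4, Cyp1b1 and Ephx1) and Ugt3a1 fell, and Slc5a12 and Cyp1b1 joined Glyat and Fmo1 among the microbial metabolite genes, while Nr1h3 fell. Psmb5 fell in place of Psmc3.

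Several of these calls depended on 1 library. Sod3, Cox5a and Ndufa2 failed without HS_AOS 3 (0.094, 0.0592 and 0.0514) or control 1 (0.0744, 0.0661 and 0.0791), Sod3 also without HS_AOS 2 (0.0611), and Fmo1 without HS_AOS 2 (0.062). Cat and Psmc3 failed with any 1 of the 6 libraries left out (0.0579 to 0.135 and 0.0585 to 0.15). With the GC trend removed Sod3 (0.0273) and Cox5a (0.0252) passed, and Fmo1 (0.0693), Cat (0.0517), Ndufa2 (0.0721) and Psmc3 (0.28) did not.

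Of the 28 pathway lists, 14 held no called gene. These were glycolysis, immediate early genes, heat shock proteins, endoplasmic reticulum folding, the ATF4 response, glucocorticoid-induced genes with metallothioneins, p53 targets, the cell cycle, extracellular matrix, chemokines, interferon-stimulated genes, MHC class II, complement and cytosolic ribosomal proteins. At an unadjusted p under 0.05, limma gave 7 lower of 42 ribosomal proteins (median of the list -0.18) and 4 lower of 14 glucocorticoid-induced genes. It gave 0 of 19 p53 targets, and at most 5 members in each of the other lists. Over all 11866 genes tested, 1202 were higher and 1040 lower at that threshold. Without control 3, 7 p53 targets rose (Plk2, Zmat3, Mdm2, Polk, Gdf15, Ccng1 and Eda2r). Gdf15, a stress-induced hormone, was at 11.1, 9.74 and 9.45 FPKM in HS_AOS, 4.31 and 4.28 in controls 1 and 2, 28.2 in control 3, and 18.02, 14.6 and 20.4 in HS. Without control 3, 4 cell cycle genes (Rrm1, Ccnb2, Ccnd1 and Pcna), Herpud1 and Rpl3 also rose, and the chaperones Hspe1, Calr and Sdf2l1 fell. Tubular injury genes had a median log2 difference of -0.66 over 17 members, which was -0.02 without control 3. Only Krt7, a keratin of the collecting system, fell (39.0, 28.9 and 30.3 against 63.4, 44.5 and 98.3 FPKM, adjusted p = 0.033), and it failed without HS_AOS 2 (0.0987), HS_AOS 3 (0.11) or control 1 (0.0814). The 27 matrix genes had a median of -0.16 and the 20 chemokine genes of -0.02.

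**Figure D5:**
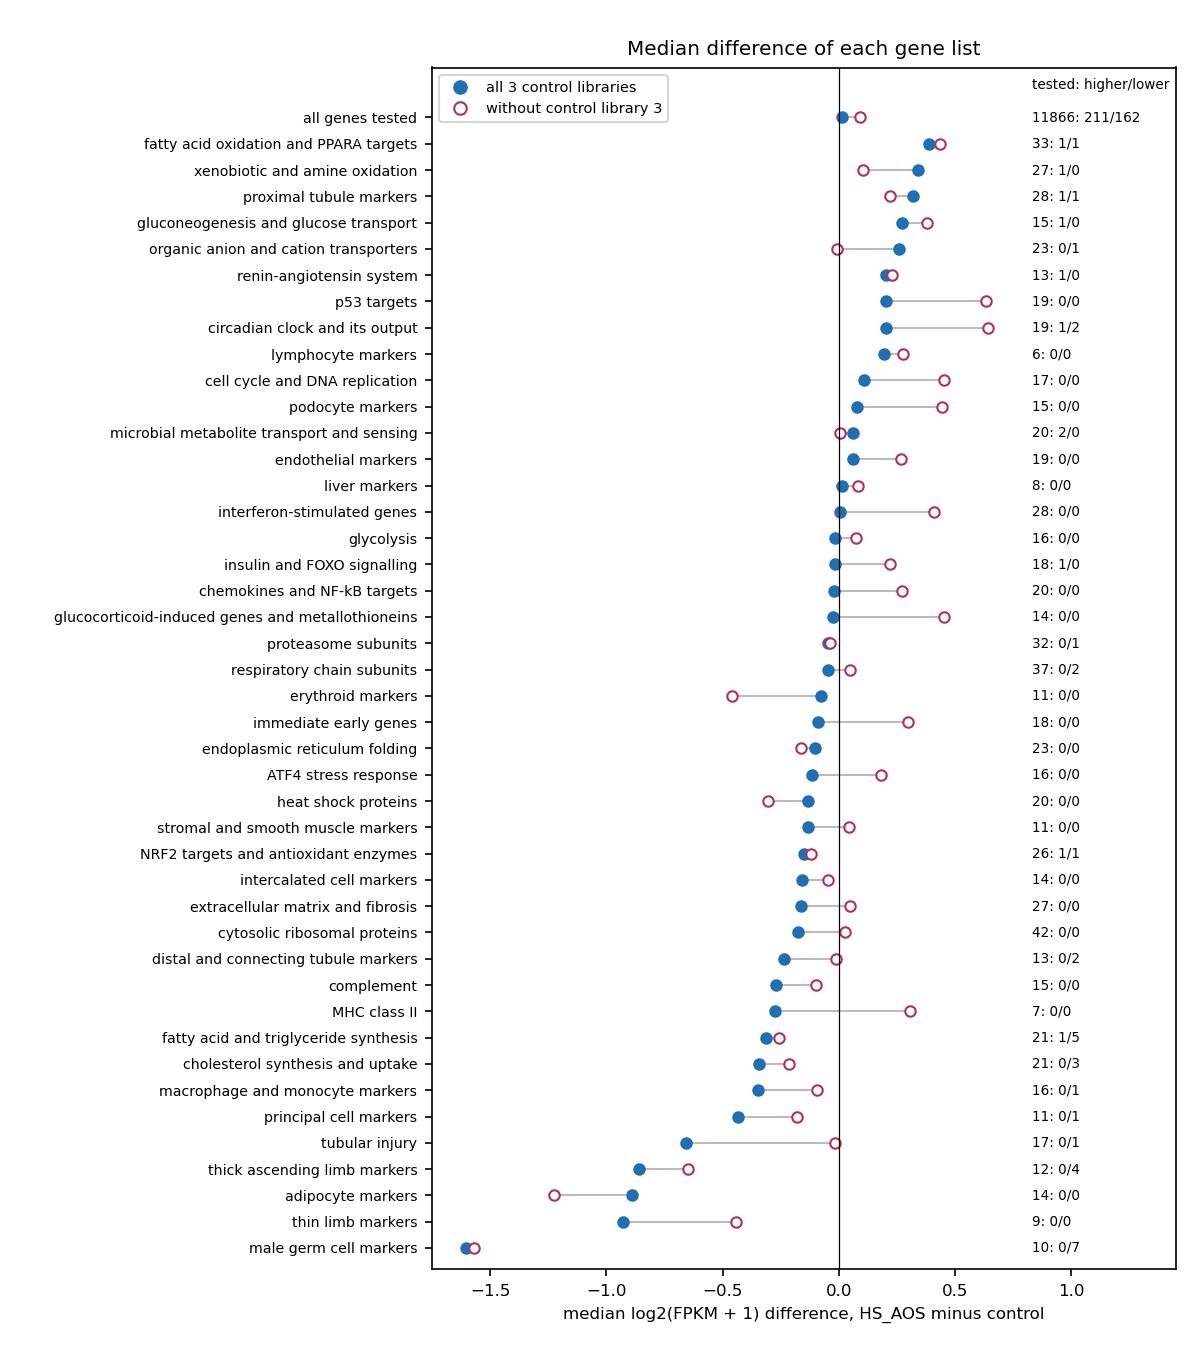
Median log2(FPKM + 1) difference, HS_AOS minus control (horizontal axis), of each list with at least 6 members tested. Filled points use all 3 controls and open points leave out control 3, and the figures at the right give members tested and members called higher and lower with all controls. The tubular injury median moves from -0.66 to -0.02 without control 3, and that of the thick ascending limb from -0.86 to -0.65.

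Among markers of blood and immune cells, 1 was called. Csf1r, the macrophage growth factor receptor, fell as the only one of 16 macrophage markers, whose median log2 difference was -0.35 with 14 below 0 (10.2, 8.26 and 10.1 against 19.3, 16.5 and 14.9 FPKM, adjusted p = 0.0333). It failed without HS_AOS 2 (0.107), HS_AOS 3 (0.0839), control 1 (0.104) or control 2 (0.0628). Lymphocyte, neutrophil, erythroid, endothelial and stromal lists held no call by limma, and at an unadjusted p under 0.05 they held 2 lower neutrophil markers. All 3 neutrophil markers tested lay below 0, with a median of -1.04. The summed level of the 14 listed was low, at 3.99 to 7.56 FPKM in HS_AOS, and spread widely over the controls, from 8.19 to 39.3. A median of 3 such genes gives no reading of cell number. The plasma cell gene Jchain (log2 0.77, adjusted p = 0.463), the endothelial Cldn5 (-0.34, 0.544) and the MHC class II genes H2-Ab1 (-0.46, 0.748) and Cd74 (-0.32, 0.83) did not pass. Markers of adrenal (Star, log2 -1.91, adjusted p = 0.531), pancreas (Cela1, -0.12, 0.788) and muscle (Pvalb, -0.26, 0.45, and Mylpf, -0.07, 0.909) did not pass. Of the liver markers none passed, and Apoh fell without control 3.

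The smallest p-values belonged to genes of sperm formation such as Prm1 and Tnp2, which are not typical kidney transcripts. Prm1, the protamine that packs sperm DNA, was at 9.07, 9.44 and 14.5 FPKM in the controls and listed at 0 in all HS_AOS libraries (adjusted p = 3.38e-10). Prm2 was at 4.99, 5.7 and 6.86 FPKM, Tnp1 at 5.53, 3.6 and 4.63 and Tnp2 at 7.15, 7.33 and 11.1 in the controls, and all 3 were listed at 0 in HS_AOS. The same 4 genes were listed at 0 in HS and under AOS alone, so among these groups the controls alone carried them. Of 24 germ cell markers, 10 were tested and 7 were lower, the others being Oaz3, Ldhc and Meig1. All 7 reached 1 FPKM in the controls only, so they could enter the test only because the groups differed, and their p-values are no independent support. The summed level of the 24 markers was 80.2 to 82.9 FPKM in control, 26.6 to 38.5 in HS_AOS and 43.0 to 53.6 in HS. A large part of the sums in HS_AOS and HS was Smcp, a list member found in all these libraries. It was at 30.2, 33.6 and 14.25 FPKM in control, 21.9, 14.3 and 20.2 in HS_AOS and 29.3, 29.7 and 40.1 in HS. Of the 24 markers, 12 were listed at 0 in every HS_AOS library and 0 of them in every control. Without control 3, Smcp fell as well. The Y-linked gene Ddx3y was at 7.32 to 15.4 FPKM in the 6 libraries. Meig1 was not called without HS_AOS 1, HS_AOS 2 or control 1, and the other 6 genes kept their call with any library left out. What brought these transcripts into the control libraries was not tested.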

How the data were processed

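Bulk kidney RNA of 18 samples was measured in 1 table. The authors deposited FPKM values per gene with 2 decimals; the unit is not written in the table and was taken from its values, since sums weighted by transcript length varied less across libraries (0.930% as a coefficient of variation) than unweighted sums (4.29%). The submitters' processing notes name Bowtie 0.12.2 and mm10. How genes were quantified, the annotation, strandedness and filters are not given in sources used here, so overlapping or antisense genes cannot be separated. Depth is unknown: from 25.3% to 42.0% of low values of short genes lay within 0.1 of a whole step, so reads could not be recovered.

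Groups came from the labels. The design foresaw counts or normalized values, and the limma route was used because the values are FPKM. Values were transformed to log2(FPKM + 1), and 7679 genes below the filter were left out. In limma 3.58.1 (R 4.3.3), 1 mean per group was fitted to all 18 libraries (trend and robust on, with 12 degrees of freedom left). The Benjamini and Hochberg adjustment covered the 11866 genes, with a threshold of 0.05. All p-values are limma's, and the procedure was tested on simulated data. GC content and length are those of the longest GENCODE M21 transcript (99.1% of the genes tested), and were removed with natural splines of 4 degrees of freedom each. Positions and promoters are RefSeq's (GRCm38.p6). In the authors' file, 3 symbols occur in more than 1 row, and none of them is named.

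The comparison, the 47 gene lists and the naming rule were chosen with earlier results of these data known. The rule named, in each direction, the 12 called genes with the largest difference whose groups did not overlap and whose higher group averaged 2 FPKM or more, leaving out predicted genes. It added up to 4 called members of a list, by smallest p, and 2 members of a list without a call. Other genes, including those called without control 3 only, were chosen after their values were seen. Alternatives were a replicate block, quantile and median scaling, GC and length removal, limma without trend, without robust and with array weights, other filters, the 6 libraries alone, a pseudocount of 0.1, a fold threshold, the 3 adrenal-rich libraries left out, and each library left out. GC removal without control 3, and list counts without control 3, were added after seeing the data. Some called members of the lists are counted but not reported by name.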

Additional observations from a re-analysis of the deposited data

How the results depend on the processing

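The count of 373 genes (211 higher and 162 lower) moved by over 1.5 times under these settings, given with higher and lower genes: 246 (141 and 105) with a replicate block, 198 (124 and 74) with the GC and length trend removed, 153 (97 and 56) with both, 2451 (1675 and 776) with array weights, whose estimation did not converge fully, 676 (246 and 430) with no filter, 6 (1 and 5) with the 6 libraries alone, 661 (489 and 172) without the 3 adrenal-rich libraries (control 3, HS 3 and HS_AOS_FMT 2), 51 (18 and 33) with a log2 difference of at least 1, and 801 (619 and 182) without control 3 and with the trend removed. With 1 library left out it ran from 87 to 910, higher genes from 48 to 668 and lower genes from 39 to 242. Quantile scaling gave 467 and equal medians 346. All 373 genes kept their sign under every setting that gave them a value. In all 211 higher and all 162 lower genes the groups did not overlap, so leaving out a library could not turn a sign. The kept signs are therefore no independent support. Calls were not kept alike: of 55 named genes called, 6 kept the call under every alternative but the fold threshold. The cause was not tested. Replicate numbers shared by HS_AOS and control do not pair the libraries (correlations of same-numbered deviations -0.25, 0.0651 and -0.339), and with the replicate block 42 of the 55 named calls were kept.

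HS against control (8 genes) gave 207 with array weights, 255 with no filter, 2 at 5 FPKM or more, 7 to 13 with 1 library left out and 15 without control 3 and with the trend removed. AOS against control (8 genes) gave 13, 238 and 3 under the first 3 of these. HS_AOS against HS (322 genes) gave 87 with the replicate block, 494 with quantile scaling, 1 with the trend removed, 4 with trend removal and block, 3087 with array weights, 166 with no filter, 0 without the adrenal-rich libraries, 7 with a log2 difference of at least 1, 188 without control 3 and with the trend removed, and 0 to 819 with 1 library left out.

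Of the named genes not called, 8 changed sign. Without control 3, and without the adrenal-rich libraries, the log2 difference was 0.0755 for H2-Ab1, 0.305 for Cd74, 0.112 for Star, 0.0460 for Cela1 and 0.270 for Mylpf. Without control 3 and with the trend removed it was 0.235 for H2-Ab1, 0.436 for Cd74, 0.16 for Cldn5, 0.0504 for Star, 0.194 for Cela1 and 0.462 for Mylpf. With 1 library left out these genes ran from -0.946 to 0.0755 (H2-Ab1), -0.712 to 0.305 (Cd74), -2.97 to 0.112 (Star), -0.265 to 0.0460 (Cela1) and -0.283 to 0.270 (Mylpf). With the trend removed, with or without the block, it was 0.0529 for Cela1 and 0.146 for Mylpf. With array weights it was -0.389 for Jchain, 0.184 for Cela1, 0.00618 for Pvalb and 0.174 for Mylpf. With 3 samples a group and unknown depth, genes near 1 FPKM have the least certain values, and a miss of the threshold does not show that groups were alike.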
